A study of Mus musculus with 6 samples.

Results

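Keratin genes were examined in mouse inguinal fat, the subcutaneous depot of the groin, as all genes whose name on the array is Krt followed by a number and at most 1 letter. The rule gave 51 genes of the 34844 names on the array, read by 67 probes. The data came from 1-colour microarrays of male C57BL/6J mice, with 3 arrays in each of 2 groups. DIO_CR_WR mice entered the study at 2 months of age, ate a diet giving 60% of energy as fat over 1 month, and were then held on restricted calories for about 3 weeks until they weighed the same as chow-fed mice of their age. They were then returned to the fatty diet without restriction and regained weight. Mice of the group titled DIO stayed on chow until that point and ate the same fatty diet during the last period, so both groups ate it at the end. The protocol text gives the name DIO to the regain mice and CTR to the others, and the groups used here are those of the sample titles. Labelled ages are 9, 10 and 11 months for DIO_CR_WR and 6, 7 and 8 months for DIO. They go up by 1 month along the sample order, while the protocol describes mice of like age, so they may not be real ages. As labelled, age and diet history cannot be told apart. Nothing in the labels says whether a sample was 1 mouse or a pool, and the spread between arrays may be technical.

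Keratins are the intermediate filament proteins of epithelial cells. A filament is built from pairs of an acidic type I and a basic type II keratin, and each epithelium uses its own pairs: Krt8 with Krt18 and Krt19 in single-layered and glandular epithelia, Krt5 with Krt14 in the basal layer of stratified epithelia, Krt1 with Krt10 above it, and a separate set in the hair follicle. Adipocytes belong to another lineage with vimentin filaments, while a subcutaneous depot can also hold lymph node, nerve, vessels, adhering skin and, in females, ducts of the mammary gland. In bulk RNA fewer cells of a type and less RNA per cell cannot be told apart.

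Of the 51 keratin genes 27 lay on chromosome 11, between 99094648 and 100128311 on build mm9, and 24 on chromosome 15, between 101180014 and 101862400. These are the type I and type II keratin clusters, with Krt18, a type I gene, inside the chromosome 15 span. A few probe sequences matter for reading the values. First come the probes of Krt7 and Krt19, the simple-epithelium keratins with the lowest p, and the Krt8 probe nearer the middle of its transcript, which stayed close to background.

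Krt7: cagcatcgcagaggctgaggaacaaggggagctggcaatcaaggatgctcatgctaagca
Krt19: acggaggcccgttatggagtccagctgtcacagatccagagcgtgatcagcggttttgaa
Krt8: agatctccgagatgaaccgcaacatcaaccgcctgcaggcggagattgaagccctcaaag

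On mm9 they lay at chr15:101253718-101253777 on the plus strand, chr11:100002392-100002451 on the minus strand and chr15:101828827-101828886 on the minus strand. They start at transcript positions 1054, 1047 and 1037. The next set is shown because the probes of 2 hair shaft keratins shared most of their bases, so that 1 transcript could hybridise to both. Capitals mark bases identical to the Krt81 probe in the best alignment without gaps.

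Krt81: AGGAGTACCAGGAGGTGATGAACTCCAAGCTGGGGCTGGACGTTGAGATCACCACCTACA
Krt83: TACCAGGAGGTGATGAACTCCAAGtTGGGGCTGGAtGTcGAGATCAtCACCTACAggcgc

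The Krt81 probe lay at chr15:101290583-101290642 and the Krt83 probe at chr15:101263556-101263615, both on the minus strand. They matched at 51 of 55 aligned bases (92.7%). The accession behind the name Krt83 now carries the symbol Krt87 in the RefSeq table. The last set is 1 stretch, bases 18 to 47 of the probe of Krt222, a short keratin-like gene beside Krt24, with its repeat of AC in capitals.

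Krt222: ttgtACACACACACACACACACACACccgg

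The whole probe lay at chr11:99095480-99095539 on the minus strand. It is printed because this probe was the brightest of all keratin probes by far, as given below.

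Arrays differed in how many dim probes they resolved. Of the 67 keratin probes 22, 32 and 37 were well above background on DIO_CR_WR replicates 1 to 3, against 41, 57 and 56 on DIO replicates 1 to 3. Over all non-control probes the shares were 51.1%, 61.5% and 65.6% in DIO_CR_WR and 68.2%, 79.2% and 77.6% in DIO. Slide 1 held the 3 DIO_CR_WR arrays with DIO replicate 1, and slide 2 held DIO replicates 2 and 3. On the first principal component (44.6% of the variance) the DIO_CR_WR arrays lay at −76.4, −47.2 and −19.7, DIO replicate 1 at 16.7, and the slide 2 arrays at 69.2 and 57.5. No spot was saturated. Intensities below are scaled so that every array has the same 75th percentile of 5638 over its non-control probes. A gene counts as measured if a probe was well above background on at least 3 arrays, and the brightest such probe stands for it. Brightness depends on the probe as well as on the transcript, so it is given to describe probes and not to rank genes. By this criterion 37 keratins were measured and 14 were not, of which 4 (Krt25, Krt75, Krt76 and Krt84) were well above background on no array. Among the 37, 19 were well above background on all 6 arrays, and 5 (Krt17, Krt32, Krt33b, Krt77 and Krt86) on no DIO_CR_WR array, as did 3.9% of all genes tested.

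Most measured keratins had lower values in DIO_CR_WR fat, though 4 did not, and 0 passed the test. Limma with Benjamini-Hochberg adjustment over 26178 genes called 0 of them (0%), keratins included, and the smallest adjusted p, reached by Krt42 among others, was 0.108. Of the 37 measured keratins 21 were lower and 0 higher at an unadjusted p under 0.05, beside 21.6% of all genes lower and 5.43% higher. The median log2 fold change of the measured keratins, DIO_CR_WR over DIO, was −0.78, against −0.20 over all genes. A value below 0 was found for 33 keratins and above 0 for 4 (66.3% of all genes were below 0), and the 4 were Krt10, Krt23, Krt31 and Krt74. The DIO_CR_WR arrays all lay below the DIO arrays for 15 keratins (26.5% of all genes) and all above for 0 (7.25%). The 5 genes without a DIO_CR_WR array above background could pass the filter only through DIO, and all but Krt77 were among those 15. Leaving out all such genes, 17 of 32 keratins were lower (20.3% of all genes), with a median of −0.70, against −0.18 over all genes. Scaling to spike-ins in place of the 75th percentile moved the median of all genes to 0.30 and that of keratins to −0.28, with 4 keratins lower (2.95% of all genes) and 2, Krt10 and Krt23, higher (21%).

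The size of the difference changed when the slide entered the fit. With the slide as a block the median keratin log2 fold change was −0.33, against −0.10 over all genes, and 5 keratins were lower at an unadjusted p under 0.05 (5.88% of all genes) and 0 higher (4.67%). These were Krt28 and Krt42, and 3 genes measured only through DIO (Krt32, Krt33b and Krt86), so 2 remained without such genes. Because slide 2 held only DIO arrays, blocked values set the 3 DIO_CR_WR arrays against DIO replicate 1 alone. A difference between slides and a difference of that 1 array cannot be told apart. On slide 1 all 3 DIO_CR_WR arrays lay below DIO replicate 1 for 15 keratins (39.3% of all genes) and above it for 2, Krt23 and Krt26 (23%). The 15 again included Krt17, Krt32, Krt33b and Krt86, measured only through DIO. Without DIO replicate 1 limma called 4057 genes (15.5%), 15 keratins among them, but then each group had its own slide and the 2 cannot be told apart. The plot of keratin fold changes sets both estimates side by side.

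**Figure D1:**
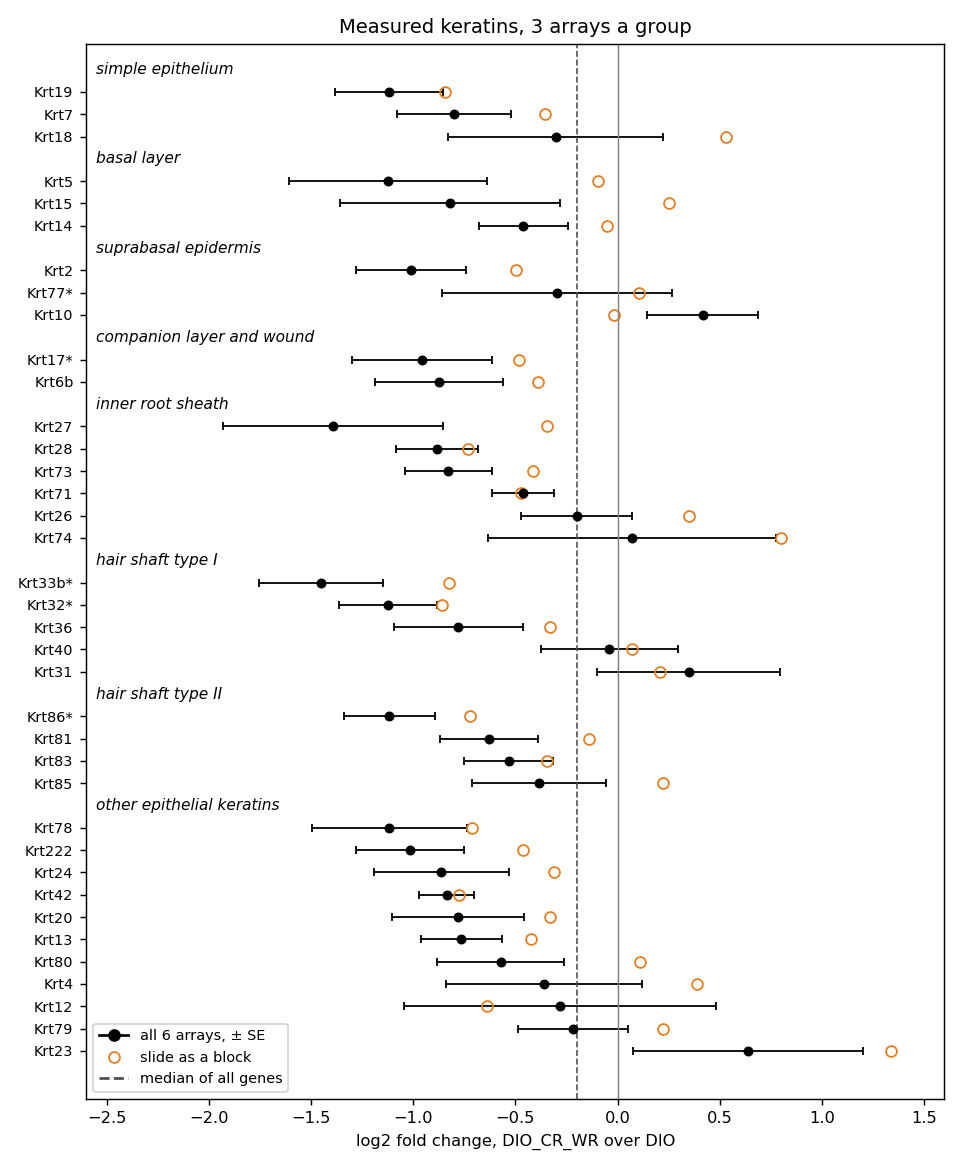
Log2 fold change (DIO_CR_WR over DIO) of the 37 measured keratins, grouped by class, with black points and bars for the value and standard error (SE) over 3 arrays a group, and open orange circles for the value with the slide as a block. The dashed line is the median of all genes (−0.20), asterisks mark the 5 genes well above background on no DIO_CR_WR array, 33 of 37 black points lie below 0, and 25 of 37 circles do. With spike-in scaling 23 lie below 0.

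Of the 4 keratins of simple epithelium, which line ducts and glands, 3 were measured, each well above background on all 6 arrays. Of these, 2 were lower at an unadjusted p under 0.05 (21.6% of all genes). Krt7, a type II keratin of ducts, had scaled intensities of 1069, 1560 and 1771 in DIO_CR_WR, against 1836, 2782 and 3052 in DIO. All DIO_CR_WR values lay below all DIO values, but DIO_CR_WR replicate 3 and DIO replicate 1, on the same slide, were close. The log2 fold change was −0.80 ± 0.28 SE (limma adjusted p = 0.148), and −0.36 with the slide as a block. Krt19, the smallest keratin, which lacks most of the tail domain, had 696, 723 and 436 in DIO_CR_WR, against 1083, 1628 and 1273 in DIO. The groups did not overlap, on slide 1 or over all arrays. Its log2 fold change was −1.12 ± 0.26 SE (limma adjusted p = 0.120), and blocking on the slide gave −0.84.

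Krt18, the usual type I partner of Krt8, had 941, 420 and 600 in DIO_CR_WR, against 428, 663 and 1570 in DIO. The groups overlapped, with the highest and nearly the lowest value both in DIO. The log2 fold change of −0.30 ± 0.53 SE (limma adjusted p = 0.731) became 0.53 with the slide as a block, 0.20 with spike-in scaling and 0.22 when DIO replicate 3 was left out. Krt8 itself was not measured. Its probe at transcript position 1037, printed above, had 82.0, 31.8 and 58.2 in DIO_CR_WR, against 62.1, 145 and 140 in DIO, and only DIO replicates 2 and 3 were well above background. Its probe at position 1722 had 96.5, 26.8 and 97.2 in DIO_CR_WR, against 13.7, 22.4 and 32.2 in DIO. Here only DIO_CR_WR replicate 3 was well above background, and replicate 1 lay under that array's lowest resolved signal of 292. No direction can be read from either Krt8 probe.

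**Figure D2:**
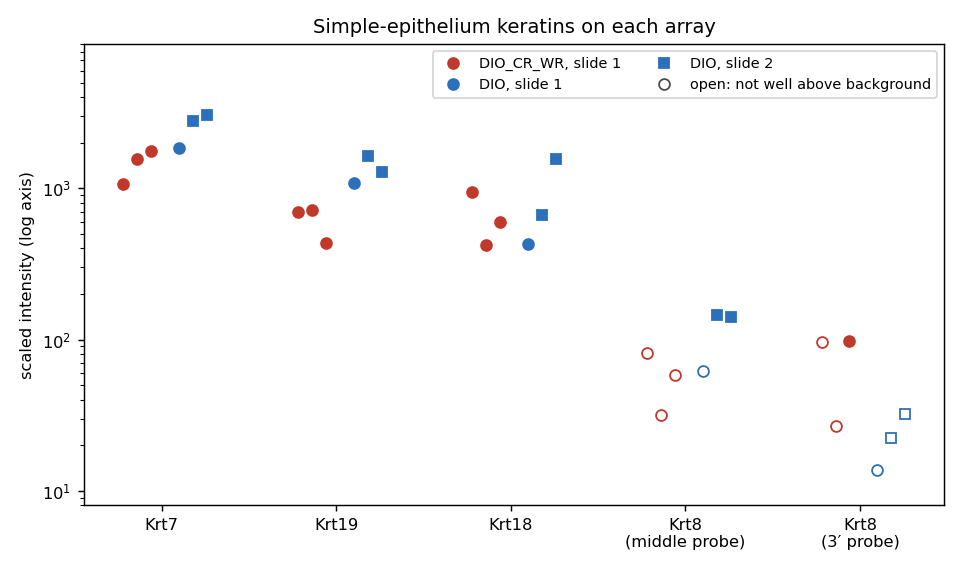
Scaled intensity (log axis) of the simple-epithelium keratin probes on each array, DIO_CR_WR in red and DIO in blue, with circles for slide 1, squares for slide 2 and open symbols where the probe was not well above background. Krt7 and Krt19 show 3 DIO_CR_WR points below 3 DIO points, Krt18 overlaps, and each Krt8 probe is filled on at most 2 arrays.

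All 3 basal-layer keratins of stratified epithelium were measured, and their groups overlapped. Krt14 had 729, 611 and 621 in DIO_CR_WR, against 675, 1036 and 1034 in DIO, and DIO replicate 1 lay within the DIO_CR_WR range. Its partner Krt5 had 82.3, 101 and 134 in DIO_CR_WR, against 111, 413 and 250 in DIO, and was well above background on 1 DIO_CR_WR array and all 3 DIO arrays. Krt15, a type I keratin of basal cells and the hair follicle bulge, had 143, 146 and 322 in DIO_CR_WR, against 159, 447 and 522 in DIO. In all 3 genes the pair of slide 2 arrays was higher than DIO replicate 1, by 0.62 to 1.61 on the log2 scale. None of the 3 was lower at an unadjusted p under 0.05 (0 of 3), with log2 fold changes of −0.46 ± 0.22 SE for Krt14, −1.12 ± 0.48 SE for Krt5 and −0.82 ± 0.54 SE for Krt15. With the slide as a block they were −0.05, −0.10 and 0.25.

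Suprabasal keratins, made once epidermal cells leave the basal layer, did not share a direction. Krt2, a type II keratin of the upper epidermis, had 941, 1027 and 1311 in DIO_CR_WR, against 1525, 2510 and 2706 in DIO. The groups did not overlap, and the log2 fold change was −1.01 ± 0.27 SE (limma adjusted p = 0.125), or −0.50 with the slide as a block. A second Krt2 probe, at position 2347, was well above background on 2 DIO arrays only, too few to give a direction. Krt10, the type I keratin of the suprabasal pair, gave opposite answers by probe. The brighter probe, at transcript position 1765, had 4740, 5266 and 3685 in DIO_CR_WR, against 4567, 3460 and 2448 in DIO. Its log2 fold change was 0.42 ± 0.27 SE (limma adjusted p = 0.348). The other probe, at position 1311, had 463, 492 and 345 in DIO_CR_WR, against 532, 678 and 700 in DIO, a log2 difference of −0.56. The groups overlapped on the first probe and not on the second, and both probes were well above background on all 6 arrays. Krt1, the type II partner of Krt10, and Krt9, of footpad skin, were not measured. Krt77 had 254, 57.8 and 72.7 in DIO_CR_WR and 95.1, 142 and 146 in DIO, and was well above background in DIO alone.

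Companion-layer and wound keratins, which the follicle makes and epidermis makes on injury, had 2 of 5 genes measured. Both were lower at an unadjusted p under 0.05 (21.6% of all genes), 1 of them (Krt17) measured only through DIO. Krt6b had 183, 282 and 339 in DIO_CR_WR, against 340, 592 and 536 in DIO, a log2 fold change of −0.87 ± 0.31 SE (limma adjusted p = 0.151). DIO_CR_WR replicate 3 and DIO replicate 1 were nearly equal, and the value was −0.39 with the slide as a block. A second Krt6b probe was well above background on no array. Krt17 had 65.8, 33.8 and 65.7 in DIO_CR_WR, none well above background, against 73.4, 113 and 128 in DIO. Krt6a, Krt16 and Krt75 were not measured.

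Inner root sheath keratins, which shape the growing hair, had 6 of 7 genes measured. Of these, 4 were lower at an unadjusted p under 0.05 (21.6% of all genes). Krt28 had 351, 495 and 508 in DIO_CR_WR, against 739, 896 and 837 in DIO, and the gap held on slide 1. Its log2 fold change was −0.88 ± 0.20 SE (limma adjusted p = 0.119), and blocking on the slide left −0.73. A dimmer Krt28 probe, at position 687, had 67.0, 218 and 27.9 in DIO_CR_WR and 47.8, 83.8 and 51.5 in DIO, a log2 difference of 0.33 with the groups overlapping. Krt73 had 324, 356 and 316 in DIO_CR_WR, against 442, 682 and 677 in DIO, with no overlap and a log2 fold change of −0.83 ± 0.21 SE. Krt71 had 111, 131 and 137 in DIO_CR_WR, against 175, 176 and 169 in DIO. It was well above background on 1 DIO_CR_WR array and all 3 DIO arrays. The DIO arrays of both slides were alike for Krt71, and its log2 fold change was −0.46 ± 0.15 SE, −0.47 within the slide block and 0.04 with spike-in scaling. Krt27 had 127, 73.5 and 165 in DIO_CR_WR, against 147, 568 and 334 in DIO, so DIO replicate 1 lay among the DIO_CR_WR arrays. Its log2 fold change of −1.39 ± 0.54 SE shrank to −0.35 with the slide as a block. Krt27 too was well above background on 1 DIO_CR_WR array and all 3 DIO arrays. Krt26 (−0.20 ± 0.27 SE) and Krt74 (0.07 ± 0.71 SE) overlapped between groups, and Krt74 was −0.73 without DIO_CR_WR replicate 1, whose 589 was the highest value. Krt26 was 0.35 with the slide as a block.

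Hair shaft keratins, the cysteine-rich keratins of the hair itself, had 9 of 15 genes measured. Of these, 6 were lower and 0 higher at an unadjusted p under 0.05 (21.6% and 5.43% of all genes). Without the genes measured only through DIO, 3 of 6 were lower (20.3% of all genes). Krt33b had 60.2, 48.4 and 68.7 in DIO_CR_WR, against 104, 198 and 199 in DIO. Krt32 had 71.8, 94.9 and 56.6 in DIO_CR_WR, against 132, 167 and 180 in DIO. Krt86, a type II hair keratin, had 76.5, 83.3 and 90.8 in DIO_CR_WR, against 137, 232 and 185 in DIO. In all 3 no DIO_CR_WR array was well above background and every DIO array was, so only a bound is given. For it, a DIO_CR_WR array enters with the dimmest signal that still counted as well above background there, unless the probe itself was brighter. By it Krt33b was at least about 1.12-fold lower, Krt32 1.11-fold and Krt86 1.24-fold in DIO_CR_WR. The bound is approximate, since some probes brighter than that dimmest signal were also not well above background. On DIO_CR_WR replicate 1 the dimmest such signal, 292, was above every DIO value of these genes. Limma adjusted p values of 0.116, 0.119 and 0.114, in the same order, came from the measured values and not from the bounds.

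The 3 other lower hair keratins were well above background on all 6 arrays. Krt36 had 1029, 769 and 580 in DIO_CR_WR, against 970, 1276 and 1875 in DIO, and a second probe of Krt36 gave 1227, 730 and 412 in DIO_CR_WR, against 926, 1006 and 1860 in DIO. The probes went the same way, with log2 differences of −0.78 and −0.74, and on both DIO_CR_WR replicate 1 lay above DIO replicate 1. Krt81 had 972, 1140 and 999 in DIO_CR_WR, against 1139, 1846 and 1947 in DIO, and Krt83 had 669, 803 and 1021 in DIO_CR_WR, against 1041, 1396 and 1144 in DIO. Log2 fold changes were −0.63 ± 0.24 SE for Krt81 and −0.53 ± 0.22 SE for Krt83, which blocking on the slide turned into −0.14 and −0.35. With spike-in scaling they were −0.13 and −0.03. Whether the similar Krt81 and Krt83 probes read the same transcript was not tested. Krt31 (0.35 ± 0.45 SE) and Krt40 (−0.04 ± 0.33 SE) overlapped between groups and changed sign under other settings.

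Krt85 was the brightest hair keratin, but on 1 of its 3 probes only. That probe, for which the array files give no genome position, had 12396, 18512 and 19079 in DIO_CR_WR, against 14022, 23198 and 29990 in DIO, a log2 fold change of −0.39 ± 0.33 SE (limma adjusted p = 0.468) that was 0.22 with the slide as a block. A second Krt85 probe, at position 2534, had 58.0, 210 and 233 in DIO_CR_WR, against 277, 451 and 394 in DIO, and its other probe was well above background on no array. The groups overlapped on the first probe. On the probe at position 2534 they did not, but DIO_CR_WR replicate 1 was not well above background there. The lowest resolved signal of that array, 292, was above the 277 of DIO replicate 1.

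Among the keratins of other epithelia 11 of 12 were measured and 6 were lower at an unadjusted p under 0.05 (21.6% of all genes). Krt42, a type I keratin, had the smallest p of all keratins. It had 2374, 2402 and 2242 in DIO_CR_WR, against 4007, 4272 and 4251 in DIO. Arrays within a group were nearly equal, and DIO replicate 1 lay with the slide 2 arrays. The means were 2339 ± 85.8 in DIO_CR_WR and 4177 ± 147 in DIO (SD, n = 3 each), and the log2 fold change was −0.84 ± 0.14 SE (limma adjusted p = 0.108). With the slide as a block it was −0.78, and with spike-in scaling −0.34. A second Krt42 probe was well above background on 2 DIO arrays only, with a log2 difference of −0.76. Krt13, of internal stratified epithelia such as the oesophagus, had 723, 829 and 767 in DIO_CR_WR, against 1036, 1552 and 1401 in DIO. Its log2 fold change was −0.76 ± 0.20 SE, or −0.42 with the slide as a block, and its dimmer probe went the same way (−0.93). Krt4, the partner of Krt13, overlapped between groups (−0.36 ± 0.48 SE).

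Krt20, of gut and urothelium, had 551, 284 and 317 in DIO_CR_WR, against 462, 770 and 707 in DIO, with overlap through DIO replicate 1. Krt24 had 206, 378 and 330 in DIO_CR_WR, against 366, 638 and 662 in DIO. Krt78 had 163, 199 and 394 in DIO_CR_WR, against 384, 672 and 507 in DIO. In each of these 3 genes 1 DIO_CR_WR array lay above DIO replicate 1, and their log2 fold changes were −0.78 ± 0.32, −0.86 ± 0.33 and −1.12 ± 0.38 SE. A second Krt78 probe, which shares 50 bases with the first, averaged 54.1 over the 6 arrays where the first averaged 387. Krt23 was the keratin with the highest positive value, with 437, 182 and 165 in DIO_CR_WR, against 93.2, 314 and 119 in DIO. The groups overlapped through DIO replicate 2, and the log2 fold change was 0.64 ± 0.56 SE (limma adjusted p = 0.486), 1.34 with the slide as a block. Krt79, known from the mouse hair canal, had 17104, 17934 and 12521 in DIO_CR_WR, against 13442, 18224 and 24666 in DIO. Its log2 fold change of −0.22 ± 0.27 SE was 8e-04 when DIO replicate 3 was left out and 0.22 with the slide as a block.

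The brightest keratin probe was that of Krt222. This AC-repeat probe had 80208, 79091 and 85142 in DIO_CR_WR, against 112067, 178790 and 222766 in DIO. The DIO_CR_WR arrays were alike, while the slide 2 arrays stood well above DIO replicate 1. The log2 fold change was −1.02 ± 0.27 SE (limma adjusted p = 0.124), −0.46 with the slide as a block. A second Krt222 probe, at position 2439 and without the repeat, had 70.8, 116 and 144 in DIO_CR_WR, against 56.8, 54.5 and 35.6 in DIO, and was well above background on 1 array of each group. Too few arrays resolved this probe to give a direction. Of 55681 probes, 110 (0.198%) held a run of at least 16 bases of alternating AC or GT. Their median scaled intensity was 123684, against 393 for probes without such a run, and only 0.235% of all probes were brighter than the Krt222 probe. The median log2 difference was −0.35 for probes with a run and −0.05 for probes without. A negative difference was found for 33 of 35 probes with AC on the probe strand, as for Krt222, for 60 of 75 with GT, and for 52.5% of all probes. What part of the Krt222 signal came from its own transcript was not tested.

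**Figure D3:**
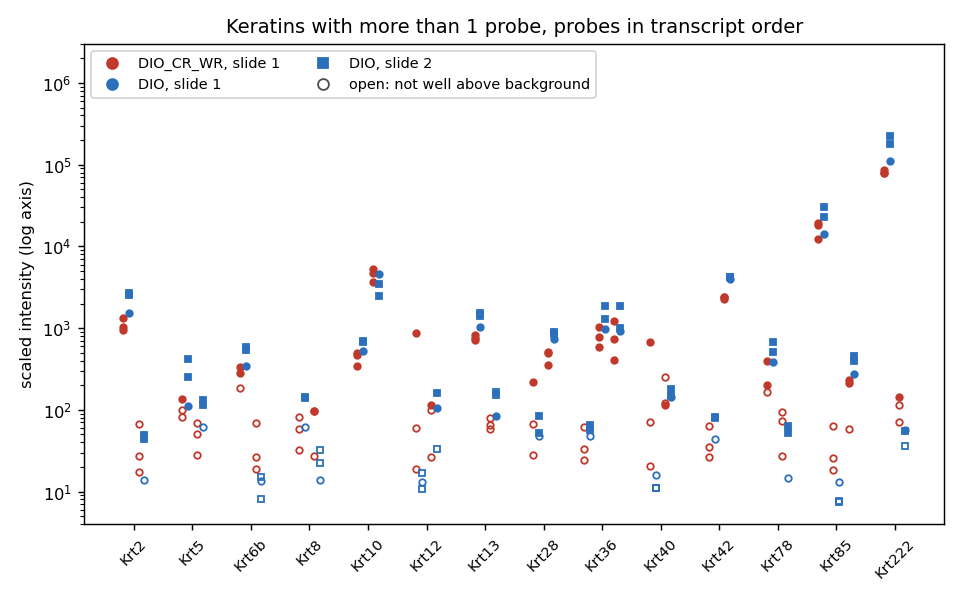
Scaled intensity (log axis) on each array for the 14 keratins with more than 1 probe, probes in transcript order from left to right within a gene, DIO_CR_WR in red and DIO in blue, with circles for slide 1, squares for slide 2 and open symbols where not well above background. The 2 Krt10 probes, filled on all arrays, differ in direction, and many second probes are open on most arrays.

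Some dim probes stood out on a single array. The Krt12 probe at position 528 (Krt12 is the keratin of the cornea) had 59.6, 871 and 18.9 in DIO_CR_WR, against no more than 16.9 in DIO. The Krt40 probe at position 626 had 70.1, 667 and 20.8 in DIO_CR_WR, against 15.7, 11.0 and 10.9 in DIO. For both probes DIO_CR_WR replicate 2 alone was well above background, and the other probes of the same genes did not stand out there. Krt4 was also highest of its group on that array, at 896.

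The fold change over all genes varied with probe brightness, being lowest for dim probes and again low for the brightest, so keratins were also set beside genes of like brightness. When the 26178 genes were cut by mean scaled intensity into 5 bins of equal size, the dimmest bin (39.7 to 275) had a median log2 fold change of −0.48 over all genes, and its 14 keratins had −0.64. In the next bin (276 to 1229) the medians were −0.25 for all genes and −0.78 for 15 keratins. In the middle bin (1229 to 5653) they were −0.03 for all genes and −0.80 for 5 keratins, Krt2, Krt7, Krt10, Krt42 and Krt81. In these bins 6 of 14, 10 of 15 and 4 of 5 keratins were lower at an unadjusted p under 0.05, beside 29.6%, 24.6% and 14.6% of all genes. Among the 14 of the dimmest bin, Krt17, Krt32, Krt33b, Krt77 and Krt86 were measured only through DIO. All but Krt77 were among its 6 lower genes, so the count and median of that bin rest partly on the filter. The bright bins held few keratins: Krt79 in the fourth, at −0.22 against −0.07 for all genes, and Krt85 and Krt222 in the brightest, with a median of −0.70 against −0.27. The distance to all genes was thus widest in the middle bin and about equal in the dimmest bin and for Krt79. With the slide as a block the keratin medians from the dimmest bin up were −0.22, −0.33, −0.36, 0.22 and −0.12, and those of all genes −0.14, −0.07, −0.02, −0.06 and −0.18. In the 2 brightest bins the keratins then lay above all genes.

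**Figure D4:**
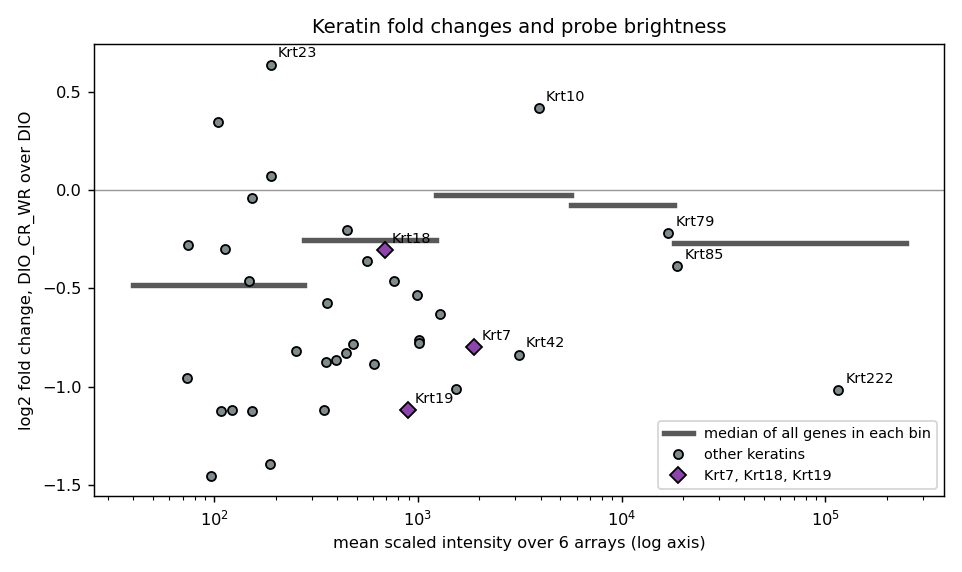
Log2 fold change (DIO_CR_WR over DIO) of each measured keratin against its mean scaled intensity over 6 arrays (log axis), with purple diamonds for Krt7, Krt18 and Krt19, grey circles for other keratins and thick bars for the median of all genes in each brightness bin. Most keratins between 276 and 5653 lie below the bar of their bin, and Krt222 stands far to the right.

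By class, the simple-epithelium keratins did not stand apart from the others as scaled and filtered here, though some other settings moved the medians apart. The median log2 fold change of the simple keratins was −0.80 (3 genes) and that of all other keratins −0.77 (34 genes). Type I keratins had a median of −0.78 (21 genes, 12 lower at an unadjusted p under 0.05) and type II keratins −0.60 (16 genes, 9 lower). Of all genes 21.6% were lower. On each array a class was summarised by the median deviation of its members from their 6-array means, minus that of all genes. For simple keratins this was −0.23, −0.20 and −0.13 in DIO_CR_WR, against −0.03, 0.41 and 0.49 in DIO. For hair shaft keratins it was −0.46, −0.19 and −0.37 in DIO_CR_WR, against −0.02, 0.35 and 0.40 in DIO. In both classes DIO replicate 1 lay between the DIO_CR_WR arrays and the slide 2 arrays, and nearer to DIO_CR_WR. For the basal layer DIO replicate 1, at −0.45, lay within the DIO_CR_WR range of −0.69 to −0.13.

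**Figure D5:**
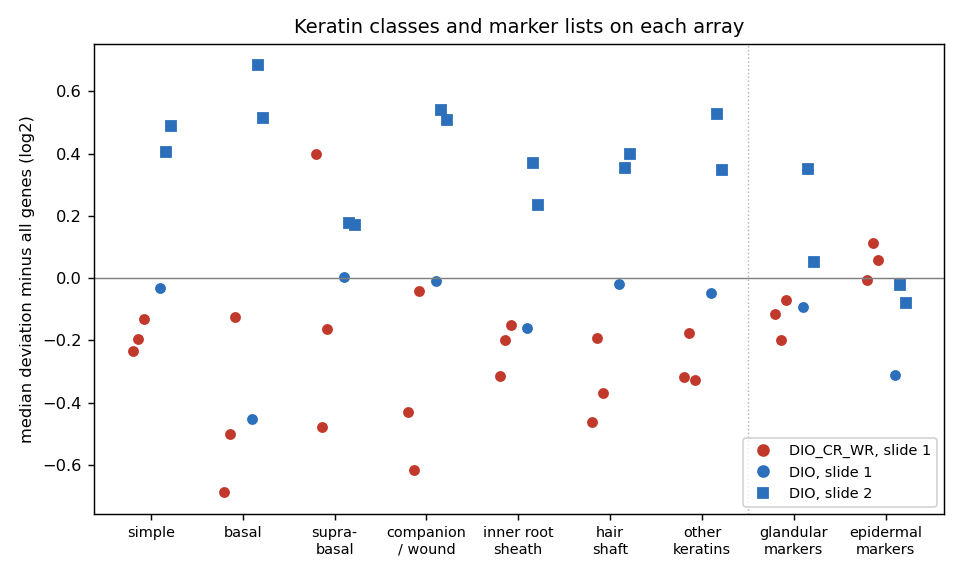
Median deviation of each keratin class and of the glandular and epidermal marker lists on each array (log2, minus the same over all genes), DIO_CR_WR in red left of DIO in blue, circles for slide 1 and squares for slide 2. The slide 2 arrays are highest in every keratin class except suprabasal, and the epidermal markers do not show this order.

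Partners and neighbours of keratin filaments did not all share the pattern. Of the other intermediate filaments, 13 of 13 were measured, 4 lower and 1 higher at an unadjusted p under 0.05, with a median of −0.38. That share, 30.8%, was near the 21.6% of all genes, and 1 was lower with the slide as a block (5.88% of all genes). The higher gene, Gfap, the filament of glia, had 863, 576 and 58.1 in DIO_CR_WR, against 42.4, 106 and 22.7 in DIO. Log2 fold changes were −0.86 ± 0.20 SE for desmin (Des), the muscle filament, and −0.80 ± 0.24 SE for Lmnb2, a lamin of the nuclear envelope. Desmosome and linker genes, which anchor keratins to cell contacts, had 15 of 19 measured, 1 lower (Dsc2, a desmosomal cadherin, −0.64 ± 0.21 SE) and 1 higher (Eppk1, a keratin-binding plakin, 0.48 ± 0.19 SE), with a median of 0.05. The plakin Dsp, which ties keratins to every desmosome, was well above background on 0 arrays. Keratin-associated proteins, the matrix of the hair shaft, had 25 of 52 genes measured, 10 lower and 0 higher, with a median of −0.53. Without those measured only through DIO 8 of 23 were lower, and 1 was lower with the slide as a block.

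Markers of the cells that could hold these keratins were mixed, and their part in the keratin values was not tested. Markers of simple and glandular epithelium had 18 of 20 measured, 8 lower and 2 higher at an unadjusted p under 0.05 (21.6% and 5.43% of all genes), with a median of −0.60. Without those measured only through DIO 6 of 15 were lower. With the slide as a block 2 were lower and the median minus that of all genes was −0.11. The tight-junction gene Cldn4 had 120, 128 and 151 in DIO_CR_WR, against 202, 339 and 295 in DIO. Elf3, an epithelial transcription factor, had 119, 61.5 and 56.7 in DIO_CR_WR, none well above background, against 340, 154 and 345 in DIO. The 2 higher members were Spint2, a protease inhibitor, with 9746, 9747 and 10053 in DIO_CR_WR, against 7073, 6049 and 4908 in DIO, and the mucin Muc1, at 67.4, 193 and 126 in DIO_CR_WR, against 59.2, 44.7 and 60.3 in DIO, well above background on 2 DIO_CR_WR arrays and 1 DIO array. The summed level of this list was 44180 to 47390 in DIO_CR_WR and 49390 to 56290 in DIO, of which Ovol2 alone gave 23301 to 24320 in DIO_CR_WR and 27647 to 29049 in DIO. Epidermal markers had 12 of 19 measured, 0 lower and 1 higher, with summed levels of 166500 to 175100 in DIO_CR_WR and 150400 to 215000 in DIO, mostly from Trp63 (86911 to 122563 in DIO_CR_WR and 105041 to 134127 in DIO). The member with the smallest p was Tgm1, the transglutaminase that crosslinks the cornified envelope, with 701, 673 and 2214 in DIO_CR_WR, against 271, 370 and 462 in DIO. The log2 fold change of Dmkn was 0.93 ± 0.46 SE, with overlap. These 2 do not stand for the list: of the 12 measured members 6 lay below 0 and 6 above, with a median of −0.04. With the slide as a block 3 were higher and 1 lower by the same criterion (4.67% and 5.88% of all genes). The list median minus that of all genes was then 0.23. The epidermal genes Flg2, Klk7 and Sprr1b were well above background on 0 arrays.

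Hair follicle markers had 10 of 14 measured, 3 lower and 0 higher at an unadjusted p under 0.05. The share of 30% was near that of all genes (21.6%), 3 members lay above 0, among them Lef1 (0.52) and S100a3 (0.36), and with the slide as a block the median was −0.10, as over all genes. Foxn1, a hair and thymus transcription factor, had 94.0, 136 and 185 in DIO_CR_WR, against 322, 322 and 286 in DIO. Dsg4, the desmoglein of the hair shaft, had 66.3, 43.9 and 53.7 in DIO_CR_WR, none well above background, against 99.4, 144 and 135 in DIO. The summed hair follicle level was 6826 to 9120 in DIO_CR_WR and 6131 to 9421 in DIO. Of the milk genes 1 of 6 was measured, Lalba (−0.17 ± 0.37 SE), with sums of 381 to 1309 in DIO_CR_WR and 420 to 529 in DIO. These sums include genes that were not measured. Csn1s2a had 728 on DIO_CR_WR replicate 1 and Csn1s1 had 668 on replicate 2, and each was well above background on 1 array. Of the mesothelial markers 3 of 8 were measured, with sums of 1013 to 2185 in DIO_CR_WR and 700 to 2102 in DIO. Msln was lower at an unadjusted p under 0.05 (−1.14 ± 0.28 SE), Gpm6a was −0.03 ± 0.73 SE, and Wt1, Bnc1, Muc16 and Upk1b were well above background on 0 arrays. Adipocyte markers, the check on the labelled tissue, had 8 of 8 measured on all 6 arrays, with sums of 770200 to 927100 in DIO_CR_WR and 841200 to 972300 in DIO. Among them 1 was lower by the same criterion, Retn (−0.42 ± 0.15 SE), and Pparg was −0.44 ± 0.18 SE.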

How the data were processed

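Total RNA was labelled with Cy3 from 0.5 µg per sample and hybridised to Agilent design 028005, per the labels and file headers. The deposited intensities are processed spot signals: per the file headers, Feature Extraction (10.7.3.1 there, 10.7.1.1 in the submitters' processing notes) subtracted a spatially detrended background, corrected a brightness trend and set near-background signals to surrogates, with no scaling between arrays. Mean spot and background intensities and flags of 0 or 1 are also deposited. A series table with 18 columns was not used.

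Control spots (3671) were set aside, outlier-flagged spots were missing, and spots of a probe were averaged (55681 probes). Log2 intensities minus each array's 75th percentile were tested with limma 3.58.1 in R 4.3.3 (lmFit and eBayes, two-sided, group only, adjusted p under 0.05), for the brightest kept probe of each of 26178 genes. On simulated data the fit was checked. Probe sequences and mm9 positions are those of the array files. Probes were compared with blastn 2.17.0 (1 probe sequence is not reported here), and 50 of 51 accessions matched the RefSeq table.

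Members and lists were chosen with earlier results of these data known. Named were the 4 simple keratins, other measured keratins at an unadjusted p under 0.05, the brightest of each class, genes whose probes disagree, and 2 genes a list with the smallest p. Genes most like Krt8 were not sought, since Krt8 was not measured. Genes outside this rule were named after their values were seen. Same-numbered arrays did not deviate together. Alternatives changed the background correction, scaling, dim-probe filter, probe choice, variance model, slide or replicate block, age covariate and each array left out. Leaving out genes well above background on no DIO_CR_WR array was added after seeing the data. The number of arrays limits precision.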

Additional observations from a re-analysis of the deposited data

How the results depend on the processing

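The 3 arrays a group limited the comparison, and the slide and the labelled age could not be separated from the groups; dim keratins rest on few arrays above background. The count of all genes called was 5 with normexp and quantile normalization, 7 with spike-in scaling, 63 among genes well above background on all arrays, 26 with a trended, robust variance, and 0 to 4057 when 1 array was left out. Keratins called were 0 to 15 with 1 array left out and 0 in all other settings run. Keratins lower at an unadjusted p under 0.05 numbered 4 with spike-in scaling (2.95% of all genes) and 5 with the slide as a block (5.88%). With the filter for all 6 arrays they were 11 of 19 measured (20.7% of all genes). With 1 array left out they numbered 10 to 27 (9.14% to 28.7% of all genes), with 10 (9.14%) without DIO replicate 2. Keratins higher numbered 2 with spike-in scaling (21% of all genes) and 1 without a filter on dim probes (11.9%). They numbered 1 with age as a covariate (4.63%) and 0 to 1 with 1 array left out (3.1% to 8.73%). The keratin median minus that of all genes was −0.23 with the slide as a block or slide 1 alone and −0.82 with age, as labelled, as a covariate. For the simple keratins these values were −0.26 and −0.82, and for the others −0.23 and −0.81. Without a filter on dim probes the simple keratins had −0.81 and the others −0.47, and with normexp and quantile normalization −0.70 and −0.39. Without DIO_CR_WR replicate 1 the simple keratins had −0.41 and the others −0.48. With the replicate block 0 genes were called and the keratin median stayed −0.78, and same-numbered arrays gave deviations correlated at −0.01, −0.12 and −0.24 across genes. The median was below that of all genes in every setting run. The cause of these shifts was not tested.

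Single keratins turned sign as follows. Normexp gave 0.0538 for Krt40 and 0.11 for Krt12, quantile normalization −0.0202 for Krt31 and 0.13 for Krt40, and median centring 0.0519 for Krt40. Spike-in scaling gave 0.0378 for Krt14, 0.0379 for Krt71, 0.46 for Krt40, 0.11 for Krt85, 0.30 for Krt26, 0.22 for Krt12, 0.14 for Krt4, 0.28 for Krt79, 0.20 for Krt18 and 0.20 for Krt77. The mean of probes gave −0.072 for Krt10. The slide as a block, or slide 1 alone, gave 0.25 for Krt15, 0.0726 for Krt40, 0.22 for Krt85, 0.35 for Krt26, 0.39 for Krt4, 0.22 for Krt79, 0.11 for Krt80, 0.53 for Krt18, −0.0169 for Krt10 and 0.10 for Krt77. Age as a covariate gave −0.19 for Krt31, 0.82 for Krt40, 0.79 for Krt12 and 0.59 for Krt77. With 1 array left out, values ran from −0.14 to 0.79 for Krt31, −0.42 to 0.17 for Krt40, −0.94 to 0.39 for Krt12, −0.95 to 0.11 for Krt77, −0.73 to 0.49 for Krt74, −0.44 to 8e-04 for Krt79 and −0.72 to 0.22 for Krt18.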
